A study of Mus musculus with 11 samples.

Results

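The miR-200 and miR-141 family is a group of miRNAs known as guardians of the epithelial state. Its members bind the mRNAs of Zeb1 and Zeb2, which encode repressors of E-cadherin and other junction genes, and the Zeb proteins in turn repress the miRNA genes, so that epithelial cells hold the miRNAs high and mesenchymal cells such as fibroblasts hold them low. The family is made from a pair of clusters on separate chromosomes, and each cluster yields members of both seed types, the seed being the stretch near the 5′ end of a miRNA that pairs with its targets. Members were taken as all rows of the small RNA tables named miR-200a, miR-200b, miR-200c, miR-141 or miR-429, from either arm of the hairpin. This gave 8 of the 1096 mature miRNAs, which came from 5 hairpins at 2 loci. The Mir200b/Mir200a/Mir429 locus had 5 members, miR-200b-3p, miR-200b-5p, miR-200a-3p, miR-200a-5p and miR-429-3p. The Mir200c/Mir141 locus had 3 members, miR-200c-3p, miR-141-3p and miR-141-5p.

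The family was measured in cultured mouse spermatogonial progenitor cells (SPCs), the germ cells that maintain sperm production, with and without knockdown of Mov10, which encodes an RNA helicase. The comparison addressed whether loss of MOV10 alters the level of mature miRNAs. The cells were Thy1-positive testis cells from mouse pups, labelled as postnatal day 6 and C57BL/6, whereas the methods of the study gave 6 to 8 days and the strain B6;129S-Gt (Rosa) 26Sor/J. They were grown on STO feeder layers, which are inactivated mouse embryonic fibroblasts. Control SPCs carried the empty lentiviral vector (shVector, labelled Mov10 Vector), and knockdown SPCs carried a lentiviral vector with an shRNA against Mov10 (shMov10). Each group had 1 small RNA library, and whether the triplicate samples mentioned in the methods were pooled into it was not given in the sources used here. No difference could therefore be set against the variation between cultures. Small RNA tables hold no Mov10 mRNA, so the knockdown itself was not checked here.

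The control library held 9628835 reads on miRNAs and the Mov10 knockdown library 2794593. Levels are given as TPM, the reads of a miRNA per 1000000 reads of its library, without length correction, from library totals of 10518277 and 3194363 reads. 1 read corresponded to 0.0951 TPM for the control and 0.313 TPM for the knockdown, so that the detection floor of 3 reads lay at 0.285 and 0.939 TPM. The whole family had 225 control reads and 44 knockdown reads, which made up 0.00234% and 0.00157% of the reads on miRNAs. Confidence intervals of 95% and p-values cover counting error only, since they compare the reads of 2 libraries and not the 2 conditions.

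Most members of the family were low in the SPC cultures, with a single member above 10 TPM and 5 of the 8 below 1.5 TPM in both libraries. In the control library the order was miR-200b-3p at 12.7 TPM, miR-141-3p at 3.33, miR-429-3p at 2.57, miR-200a-3p at 1.24, miR-200b-5p at 0.475, miR-200a-5p and miR-200c-3p both at 0.380 and miR-141-5p at 0.285. Only the interval of miR-200b-3p (10.7 to 15.1 TPM, exact Poisson) lay apart from those of all other members, and that of miR-141-3p (2.32 to 4.63 TPM) overlapped that of miR-429-3p (1.69 to 3.73 TPM). In the knockdown library miR-200b-3p stood at 6.57 TPM (4.07 to 10.0) and miR-141-3p at 4.07 TPM (2.17 to 6.96), so that the leading members of the loci overlapped there. By level, miR-200b-3p ranked 366 of 1096 in the control and 391 in the knockdown, whereas miR-141-3p ranked 486 and 434. In the control, 66.6% of miRNAs had fewer reads than miR-200b-3p. The median over all 1096 miRNAs was 1.81 TPM in the control and 1.25 TPM in the knockdown. The most abundant miRNA among those listed below as acting in epithelial cells, miR-182-5p, had 6641 times the TPM of the summed family in the control.

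**Figure D1:**
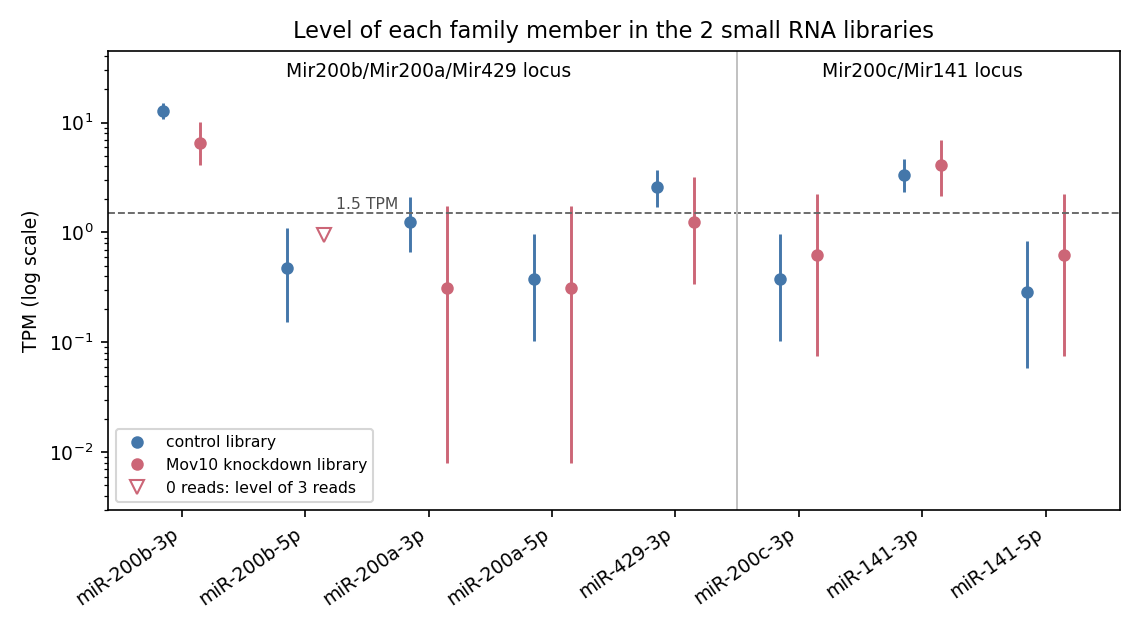
Level of the 8 family members in TPM on a log scale in the control (blue) and Mov10 knockdown (red) small RNA libraries, with 1 library per group. Points are the deposited values, vertical lines are exact Poisson 95% intervals, the open triangle is the level of 3 reads (0.939 TPM) for miR-200b-5p with 0 reads, and the dashed line marks 1.5 TPM, which 3 members passed in at least 1 library.

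The mature 3p arms are shown because they carried 213 of the 225 control reads (94.7%, 95% Wilson interval 90.9 to 96.9%) and 41 of the 44 knockdown reads (93.2%, 81.8 to 97.7%). Capitals mark the seed, bases 2 to 8 from the 5′ end, in sequences from RefSeq (GRCm38.p6), which held all 8 members. The first 3 share the seed AAUACUG and the last 2 the seed AACACUG.
miR-200b-3p: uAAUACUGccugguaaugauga
miR-200c-3p: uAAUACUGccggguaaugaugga
miR-429-3p: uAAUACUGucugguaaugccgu
miR-200a-3p: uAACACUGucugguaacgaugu
miR-141-3p: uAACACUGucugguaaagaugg
The 5 sequences were identical at 15 of their first 22 positions. The seeds differed at position 4 only (C4U from miR-141-3p to miR-200b-3p), and each seed was represented at both loci. Across loci, miR-200b-3p and miR-200c-3p differed by 2 of 22 bases, and miR-141-3p and miR-200a-3p also by 2, at A17C and G22U (counted from the 5′ end, miR-141-3p first). The first 16 bases of miR-141-3p and miR-200a-3p were the same, so that a read of that length could not be told apart between the loci, and how such reads were assigned was not given in the sources used here. Of 908 miRNAs of the tables with a mature sequence in RefSeq, 0 outside the family had either seed, and the longest run that any 3p arm shared with another miRNA was 9 bases.

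Of the 8 members, 3 were above 1.5 TPM in at least 1 library, the minimum for a call, and 5 were below it. Among the 3, miR-200b-3p and miR-429-3p were more than 1.5-fold lower in the Mov10 knockdown library, miR-141-3p changed less and 0 were raised over 1.5-fold. Over all miRNAs above this minimum, 252 of 607 (41.5%) were reduced and 96 (15.8%) were raised, with a median log2 fold change of -0.37, and 3 members are too few to set a share against this background. An exact conditional binomial test of the reads, with Benjamini-Hochberg adjustment over all 1096 miRNAs, gave an adjusted p-value below 0.05 for 1 member, miR-200b-3p. By the same test 235 of 1096 miRNAs (21.4%) were lower and 117 (10.7%) higher in the knockdown library. Fewer cells of a type and less RNA per cell cannot be told apart in these bulk samples.

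At the Mir200b/Mir200a/Mir429 locus, the level was lower in the knockdown library. The members summed to 183 control reads and 27 knockdown reads, or 17.4 TPM (14.97 to 20.1) against 8.45 TPM (5.57 to 12.3). At equal TPM, 55.6 reads would have been counted in the knockdown library. The log2 ratio of the sums was -1.04 (95% interval -1.68 to -0.45), which left the locus at 48.6% of its control level. It was -0.79 (-1.43 to -0.20) when the libraries were scaled by the median ratio of miRNAs, and so remained below 0. Without its leading member miR-200b-3p, the locus had 49 and 6 reads and a log2 ratio of -1.31 (-2.82 to -0.09). This was -1.06 (-2.57 to 0.17) after scaling by the median ratio and -1.09 (-2.61 to 0.13) after TMM scaling, both chosen after seeing the data, so that the rest of the locus was then not separated from 0.

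The leading member of this locus, miR-200b-3p, was counted with 134 control reads and 21 knockdown reads, where 40.7 would have matched the control level. Its log2 fold change was -0.94, calculated from TPM + 0.1, and the interval of the ratio without this addition was -1.69 to -0.28 (adjusted p = 0.0111, exact binomial test). This call rested on the scaling, since the adjusted p was 0.104 after scaling by the median ratio and 0.0849 after TMM scaling (exact binomial test, log2 fold changes of -0.70 and -0.73). For miR-429-3p, 27 control reads and 4 knockdown reads were counted, or 2.57 and 1.25 TPM. Its log2 fold change of -0.98 was almost that of miR-200b-3p, yet with so few reads the interval of -3.01 to 0.49 included 0 (adjusted p = 0.462, exact binomial test). miR-200a-3p had 13 control reads and 1 knockdown read, against 3.95 at equal TPM, and its interval ran from -7.39 to 0.75. The log2 odds ratio of miR-429-3p against miR-200b-3p was -0.08 (-2.19 to 1.65) and that of miR-200a-3p against miR-200b-3p was -1.03 (-6.50 to 1.86), so that differences among the members of the cluster were not detectable at this depth. The passenger arms were near 0, with 5 and 0 reads of miR-200b-5p and 4 and 1 reads of miR-200a-5p. For the count of 0 of miR-200b-5p, the floor of 3 reads (0.939 TPM) and the exact Poisson upper limit (1.15 TPM) both lie above its control level of 0.475 TPM, so no fold is given.

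At the Mir200c/Mir141 locus no decrease was seen with the deposited TPM. Its members summed to 42 control reads and 17 knockdown reads, or 3.99 TPM (2.88 to 5.40) against 5.32 TPM (3.10 to 8.52). At equal TPM, 12.8 knockdown reads would have been counted, and the log2 ratio of 0.41 (-0.49 to 1.26) was not separated from 0. Its direction turned to -1.30 when both libraries were divided by 1 common total, that is for the plain ratio of reads. This setting keeps the difference in depth between the libraries and so adds -1.72 to every log2 ratio. Most of the reads of the locus came from miR-141-3p, with 35 control reads and 13 knockdown reads against 10.6 at equal TPM. Its log2 fold change was 0.28 (interval of the ratio -0.75 to 1.24, adjusted p = 0.835, exact binomial test), and -1.36 with 1 common total. miR-200c-3p, which is the abundant form in many epithelia, was counted with only 4 control reads and 2 knockdown reads, and miR-141-5p with 3 and 2. At that depth, neither a loss nor a gain of these miRNAs could be seen.

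The share of family reads from each locus differed between the libraries, by a measure that no scaling can alter. The Mir200c/Mir141 locus gave 18.7% of the family reads in the control (42 of 225, 95% Wilson interval 14.1 to 24.3%) and 38.6% in the knockdown (17 of 44, 25.7 to 53.4%). The log2 odds ratio of the Mir200c/Mir141 locus against the Mir200b/Mir200a/Mir429 locus was 1.46 (exact 95% interval 0.35 to 2.53), an odds ratio of 2.74. With 3p arms alone it was 1.36 (0.20 to 2.48). Without the leading members miR-200b-3p and miR-141-3p it was 2.22 with an interval from -0.42 to 4.67, and the leading members alone gave 1.24 (-0.03 to 2.46), so that neither subset was separated from 0 by itself. Leaving out miR-200a-3p and miR-141-3p, whose short reads could be exchanged between the loci, gave 1.90 (-0.43 to 3.98), an alternative chosen after seeing the data. These intervals hold for the reads of 2 libraries and do not include variation between cultures.

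**Figure D2:**
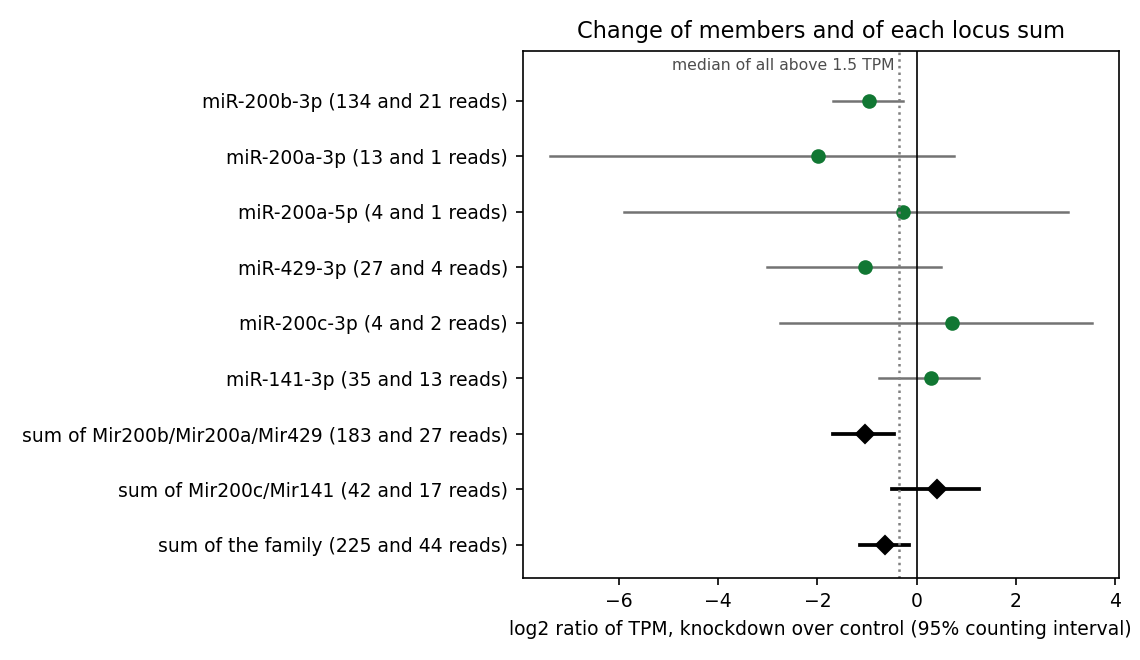
Log2 ratio of TPM in the Mov10 knockdown library over the control library for 6 members (circles) and for the sums of each locus and of the family (diamonds), with exact conditional 95% intervals for counting error and the reads of the control and the knockdown behind each value. The dotted line is the median of all miRNAs above 1.5 TPM (-0.37, from TPM + 0.1). The interval of the Mir200b/Mir200a/Mir429 sum lies below 0 and that of the Mir200c/Mir141 sum spans 0. With 1 common total for both libraries, which keeps their difference in depth, the latter sum turns to -1.30.

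Summed over both loci, the family stood at 21.4 TPM in the control (18.7 to 24.4) and 13.8 TPM in the knockdown (10.0 to 18.5). The log2 ratio was -0.64 (-1.14 to -0.16), beside the median of -0.37 over all miRNAs above the minimum. It was -0.38 (-0.88 to 0.09) after scaling by the median ratio and -0.42 (-0.92 to 0.05) after TMM scaling, so that the family as a whole was then not separated from 0. These scalings added 0.25 and 0.22 to every log2 ratio of the tables, and 1 common total added -1.72. With the deposited TPM but without the most abundant member of each locus, the family log2 ratio was -0.77 (-1.90 to 0.22), also not separated from 0.

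Grouped by seed instead of locus, the difference was smaller and not separated from 0. The 3p arms with AAUACUG (miR-200b-3p, miR-200c-3p and miR-429-3p) had 165 and 27 reads, or 15.7 and 8.45 TPM, with a log2 ratio of -0.89 (-1.54 to -0.30). The 3p arms with AACACUG (miR-200a-3p and miR-141-3p) had 48 and 14 reads, or 4.56 and 4.38 TPM, with a log2 ratio of -0.06 (-1.03 to 0.82). The log2 odds ratio of the latter against the former was 0.83 (-0.33 to 1.94). It turned to -0.26 when the members of a seed group were weighted alike and to -1.33 (-6.96 to 1.95) without miR-200b-3p and miR-141-3p. Members with the same seed at different loci differed by log2 odds ratios of 2.27 (-0.76 to 7.79) for miR-141-3p against miR-200a-3p and 1.67 (-1.89 to 4.56) for miR-200c-3p against miR-200b-3p, and both intervals included 0.

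The choice of arm was compared within the 3 hairpins with both arms in the tables, where the 3p arm is the guide strand. Mir200b gave 134 of 139 control reads from the 3p arm (96.4%, 95% Wilson interval 91.9 to 98.5%) and 21 of 21 in the knockdown (84.5 to 100%). Mir141 gave 35 of 38 (92.1%, 79.2 to 97.3%) and 13 of 15 (86.7%, 62.1 to 96.3%). Mir200a gave 13 of 17 (76.5%, 52.7 to 90.4%) and 1 of 2, too few for a share. The log2 odds ratio of the 3p arm between libraries was -0.84 (-4.12 to 2.90) for Mir141 and -1.70 (-8.10 to 4.91) for Mir200a, and its lower limit was -2.90 for Mir200b, so that a shift between arms was not detectable. The hairpins of the leading members are shown with the 3p arm in capitals, from RefSeq (GRCm38.p6), on the minus strand of chr4:156055681-156055750 and chr6:124717914-124717985.
Mir200b: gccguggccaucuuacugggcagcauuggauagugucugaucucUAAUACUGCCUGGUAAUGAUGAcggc
Mir141: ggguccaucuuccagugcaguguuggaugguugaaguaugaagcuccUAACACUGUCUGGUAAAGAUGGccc

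The loci also differed in their surroundings. On chromosome 4 of GRCm38.p6, Mir200b (156055681 to 156055750), Mir200a (156054896 to 156054985) and Mir429 (156053905 to 156053987) lay on the minus strand within 1846 bp, with 695 bp between Mir200b and Mir200a and 908 bp between Mir200a and Mir429. In GENCODE vM21, Mir200b and Mir200a lay in the intron of the noncoding transcript Gm13648, which has 2 exons, and Mir429 in an exon of it, all on the same strand. The 3 hairpins also lay in introns of 2 transcripts of the protein-coding gene Ttll10, which encodes a tubulin tyrosine ligase-like protein. On chromosome 6, Mir200c (124718322 to 124718390) and Mir141 (124717914 to 124717985) lay on the minus strand within 477 bp, 336 bp apart. Both were in introns of the noncoding transcript Gm15884, which has 3 exons and the same strand, and Mir141 overlapped in part the unspliced transcript Gm29008. The protein-coding neighbours on that chromosome were Phb2 (124712336 to 124716950, plus strand), which encodes a prohibitin, and Ptpn6 (124720707 to 124738714, minus strand), which encodes a tyrosine phosphatase. The levels of these host transcripts were not analysed here.

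**Figure D3:**
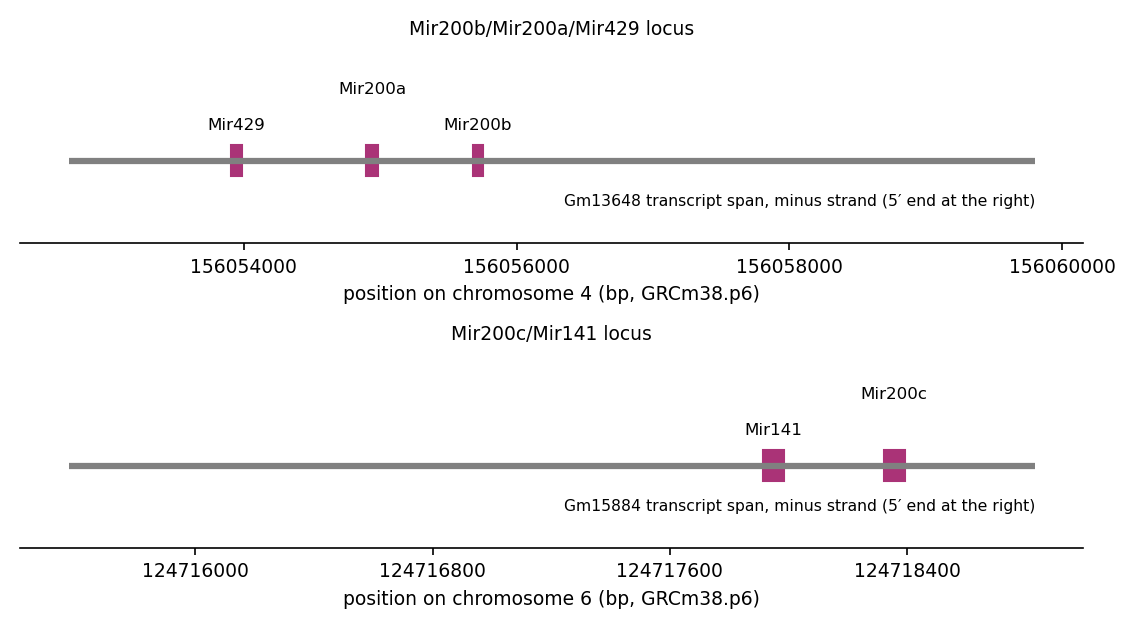
Hairpins (purple boxes, to scale) of the Mir200b/Mir200a/Mir429 locus on chromosome 4 and of the Mir200c/Mir141 locus on chromosome 6, with positions in bp of GRCm38.p6. Grey lines are the spans of the noncoding transcripts Gm13648 and Gm15884 in GENCODE vM21, which run from right to left on the minus strand and hold all 5 hairpins.

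Other miRNAs known to act in epithelial cells were abundant in the SPC cultures, in contrast to most of the miR-200 family. All 10 of the listed miRNAs were above the minimum, and 5 were reduced over 1.5-fold, 1 was raised and 4 changed less, beside 41.5% reduced and 15.8% raised over all miRNAs above it. By the exact binomial test 7 were lower and 1 was higher (21.4% and 10.7% over all miRNAs), with a median log2 fold change of -0.53 beside -0.37 over all miRNAs above the minimum. The shares by this test also cover miRNAs below the minimum, whereas the whole list was above it, so they are not like for like. The 8 above 100 TPM in the control were miR-182-5p, miR-183-5p, miR-101a-3p, miR-192-5p, miR-96-5p, miR-203-3p, miR-205-5p and miR-34a-5p. miR-203-3p, which represses p63 in skin, had 236 TPM against 117 TPM after knockdown (log2 fold change -1.01). miR-205-5p, which like the miR-200 family targets Zeb1 and Zeb2, had 159 and 68.9 TPM (log2 fold change -1.20). miR-34a-5p, a p53 target, was the raised one, at 149 and 237 TPM (log2 fold change 0.67). The list summed to 157688 control TPM and 114620 knockdown TPM, of which miR-182-5p made up 142065 and 103395. With 1 common total miR-34a-5p turned to -1.05.

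Lists of miRNAs known from fibroblasts, the cell type of the feeder layer, and from other cells were read in the same libraries. No sample held feeder cells alone, so the reads could not be assigned to a cell type. Beside the counts of these lists stand 41.5% reduced and 15.8% raised over all miRNAs above the minimum, with a median log2 fold change of -0.37, and 21.4% lower and 10.7% higher by the exact binomial test over all miRNAs. The shares by the test also cover miRNAs below the minimum, so they are not like for like with lists wholly or largely above it. The fibroblast list (miR-143-3p, miR-145a-5p, miR-199a-3p, miR-199a-5p, miR-214-3p, miR-21a-5p, miR-31-5p and miR-22-3p, 8 of 8 in the tables and all above 100 TPM in the control) summed to 131208 TPM in the control and 211289 TPM in the knockdown. Its most abundant miRNA was miR-21a-5p, which is also known to act in SPCs, at 51967 and 107056 TPM, and 0 of the list were at 0. Of the 8, miR-21a-5p was raised over 1.5-fold and 0 were reduced, with 6 higher and 1 lower by the exact binomial test and a median log2 fold change of 0.32. The log2 fold change of miR-21a-5p was 1.04 with the deposited TPM and turned to -0.68 with 1 common total, a setting chosen for it after seeing the data. Without miR-21a-5p, the other 7 summed to 79241 and 104232 TPM, and the log2 ratio of the sum was 0.40 in place of 0.69, with miR-214-3p at -0.42 and miR-145a-5p at -0.20. Most of this sum was miR-22-3p, at 50580.5 and 70510.5 TPM (log2 fold change 0.48). The germ and stem cell list held miR-290a-3p, miR-291a-3p, miR-292a-3p, miR-293-3p, miR-294-3p, miR-295-3p, miR-302d-3p, miR-20a-5p, miR-106a-5p, miR-34c-5p, miR-202-5p and miR-871-3p. Of these, 11 of 12 were in the tables, all but miR-202-5p. The list summed to 59856 and 46043 TPM. Of its 10 above the minimum, 6 were reduced over 1.5-fold and miR-34c-5p was raised, with a median log2 fold change of -0.76. By the exact binomial test 9 of the 11 were lower and 1 higher. miR-302d-3p had 2 control reads and 0 knockdown reads. Its control level of 0.190 TPM lay below the knockdown floor of 0.939 TPM, so a loss could not be seen. The most abundant was miR-871-3p, a testis miRNA of the X chromosome, at 49591 and 28515 TPM. The sum rested on it and on miR-34c-5p, which moved in the opposite direction, at 9034 and 16687 TPM (log2 fold change 0.89). Without miR-871-3p the log2 ratio of the sum was 0.77 in place of -0.38, and without both it was -0.55, with the other 9 at 1231 and 841 TPM. Besides these, miR-295-3p, miR-20a-5p, miR-292a-3p and miR-294-3p were above 100 TPM in the control. The blood cell list held miR-142a-3p, miR-223-3p, miR-150-5p, miR-155-5p, miR-451a and miR-144-3p, with 6 of 6 in the tables. It summed to 118 and 102 TPM, with miR-155-5p the most abundant at 100.2 and 95.5 TPM. Of its 3 above the minimum, 1 was reduced and 0 were raised, with a median log2 fold change of -0.34, and 1 of the 6 was lower and 0 higher by the exact binomial test. The 1 was miR-142a-3p, at 11.5 and 1.57 TPM (121 and 5 reads, log2 fold change -2.80, adjusted p 2.3e-08 by the exact binomial test), singled out after its values were seen. Without miR-155-5p the other 5 summed to 17.7 and 6.26 TPM, a log2 ratio of -1.50. Most of that control sum was miR-142a-3p, so the ratio rested largely on it. Its other arm, miR-142a-5p, was not on the list and stood at 158 and 28.8 TPM (1663 and 92 reads, log2 fold change -2.45). The blood cell sums thus hold only the rarer arm of this hairpin. The sums that left out abundant miRNAs were chosen after seeing the data. The fibroblast sum was thus higher in the library in which the Mir200b/Mir200a/Mir429 locus was lower, with and without miR-21a-5p. A sum without both miR-21a-5p and miR-22-3p was not taken. Among the other miRNAs of the fibroblast list, log2 fold changes ran from -0.42 for miR-214-3p to 0.51 for miR-199a-3p. The germ and stem cell sum was lower with all 11 and with the 9 alone, and the blood cell sum was lower with and without miR-155-5p. Their part in the difference at the locus was not tested. With 1 common total the fibroblast sum was also lower, at a log2 ratio of -1.03 against 0.69 with the deposited TPM, and after scaling by the median ratio or TMM the blood cell sum turned from -0.21 to 0.04 and 0.01, but without miR-155-5p it stayed below 0, at -1.25 and -1.28.

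The miRNAs with the most similar values over the 2 libraries were named by the smallest distance of log2(TPM + 0.1). For miR-200b-3p they were miR-8114 (140 and 19 reads), miR-20a-3p (117 and 20 reads) and miR-7a-1-3p (119 and 23 reads), at distances of 0.16, 0.21 and 0.21. For miR-141-3p they were miR-1191a (39 and 13 reads), miR-582-5p (31 and 13 reads) and miR-135b-5p (29 and 14 reads), at 0.15, 0.17 and 0.28. With 2 libraries, such likeness means only that the level and the difference were close.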

How the data were processed

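Both groups had a single small RNA library. The authors filtered rRNA reads, trimmed adaptors, mapped reads without mismatch to miRBase, and deposited read counts and TPM for each of 1096 miRNAs. Library totals were recovered as the deposited counts divided by TPM. Reads were compared, given these totals, by an exact binomial test (two-sided, conditional), with Benjamini-Hochberg adjustment over all miRNAs (scipy 1.17.1). edgeR quasi-likelihood could not be fitted with 1 library per group, and edgeR 4.0.16 was used for TMM factors only. Log2 fold changes used TPM + 0.1, and a call needed over 1.5-fold and over 1.5 TPM in at least 1 library. Sums have Clopper-Pearson intervals of the read ratio, and loci, seeds and arms were compared by odds ratios with exact conditional intervals. Named were all members, other miRNAs with a member's seed, list miRNAs above 100 TPM in the control and the 3 nearest miRNAs per locus. The fibroblast, germ and stem cell and blood cell lists are also given in full. Outside this rule, miR-302d-3p (0 reads in the knockdown), miR-142a-3p (its change) and miR-142a-5p (the other arm of that hairpin) were singled out after their values were seen. The test was also run on simulated reads with counting error only, so its behaviour under variation between cultures was not examined. Members and lists were chosen with earlier results of these data known. Alternatives were other scalings, additions to TPM, minimum levels and fold thresholds, 3p arms alone and leaving out members. RNA-seq and MOV10 CLIP samples were not used here.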

Additional observations from a re-analysis of the deposited data

How the results depend on the processing

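No paired analysis was possible because the groups hold a single library each. With 1 common total, 4 members passed the test in place of 1, the family sum was -2.35, the Mir200b/Mir200a/Mir429 sum -2.76 and the Mir200c/Mir141 sum -1.30, and miR-141-3p, miR-200c-3p and miR-141-5p turned to -1.36, -0.73 and -0.41. The median ratio and TMM left 0 members past the test. Members reduced numbered 2 in the main setting, and 4 without a minimum (with miR-200b-5p, whose value at 0 reads is set by the addition to TPM), 1 with a minimum of 10 TPM, 1 with 1.5 TPM in both libraries, 3 with 1 common total and 0 at a threshold of 2-fold. Members raised numbered 2 without a minimum (miR-200c-3p and miR-141-5p, both with 2 knockdown reads) and 0 otherwise. The seed difference was -1.33 without the leading member of each locus. The shifts with 1 common total follow from the library totals, whose log2 ratio was -1.72, and the cause was not tested for the others. Over all miRNAs, reductions made up 72.4% of the calls past 1.5-fold with the deposited TPM, 57.0% with the median ratio, 58.8% with TMM and 97.8% with 1 common total, and miRNAs lower by the exact binomial test 66.8%, 52.0%, 54.0% and 98.4% of those past it. The locus difference was between 1.36 and 2.22 under its 4 alternatives and 1.24 for the leading members alone. Intervals that included 0 were those of the leading members alone, without the leading members, and without miR-200a-3p and miR-141-3p. That of the 3p arms alone lay above 0 (0.20 to 2.48). The germ and stem cell sum turned from -0.38 to 0.77 without miR-871-3p and was -0.55 without miR-871-3p and miR-34c-5p, and miR-21a-5p turned from 1.04 to -0.68 with 1 common total. Changing the addition to TPM left the sign of the log2 fold change of each member as it was, except that miR-200b-5p has no value without an addition. Depth limits what can be seen of the family, with 5 of 8 members at 3 reads or fewer in the knockdown.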
